A study of Mus musculus with 8 samples.

Results

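Transcripts of 10 genes that mark developing T cells, *Cd3d*, *Cd3e*, *Cd3g*, *Cd4*, *Cd8a*, *Lck*, *Ptcra*, *Rag1*, *Rag2*, and *Dntt*, were followed in thymic epithelial cells (TECs) that had been sorted to be free of hematopoietic cells. The genes were chosen by name, as genes that define thymocytes, from a table of 55450 genes. All 10 had counts, and all 10 passed the filter on low counts among 21451 genes in all. The question was which of the sorted TEC populations carries these transcripts, and at what level.

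CD45-EpCAM+ TECs were isolated at embryonic day 17 (E17) from mouse embryos heterozygous for a tdTomato reporter knocked into *Ccl21a* and carrying a *Tnfrsf11a* (RANK)-Venus transgene, so that every group carries both reporters. CD45 is the surface protein of hematopoietic cells, thymocytes included, and EpCAM is an epithelial surface protein. The groups were tdTomato-positive Venus-negative cells (CCL21+RANK-, n = 3 libraries), tdTomato-negative Venus-positive cells (CCL21-RANK+, n = 3), and cells negative for both (CCL21-RANK-, n = 2). The groups depend on reporter fluorescence, and the sources used here call the replicates biological without saying whether the libraries of a group came from separate litters, so p-values measure only the spread between these libraries. Library totals were 59677315, 46003128, and 55116911 counts in CCL21+RANK-, 57286762, 50146730, and 42751839 for CCL21-RANK+, and 67451440 and 71625282 for CCL21-RANK-.

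A T cell precursor that enters the thymus rearranges its receptor genes with the RAG1 and RAG2 recombinase, while terminal deoxynucleotidyl transferase, the product of *Dntt*, adds bases at the joints. A successful beta chain pairs with the pre-T alpha chain, the product of *Ptcra*, and signals through the CD3 chains and the kinase LCK. The cell then displays CD4 and CD8 together before it keeps a single coreceptor. TECs surround these cells, and the medullary TECs that express Aire are known for transcribing many genes that are otherwise restricted to other tissues.

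The sorted cells carried the genes of the gates. *Epcam* was at 179, 121, and 106 CPM (counts scaled by library size, with trimmed mean of M-values, TMM, factors) in CCL21+RANK-, at 308, 269, and 254 CPM in CCL21-RANK+, and at 147 and 180 CPM in CCL21-RANK- TECs. *Ccl21a*, which encodes the chemokine CCL21, was at 503, 335, and 255 CPM in CCL21+RANK-, at 118, 82.9, and 65.3 CPM in CCL21-RANK+, and at 6.51 and 7.56 CPM in CCL21-RANK- TECs. *Tnfrsf11a*, which encodes RANK, was at 54.2, 62.7, and 59.0 CPM in CCL21+RANK-, at 595, 554, and 616 CPM in CCL21-RANK+, and at 17 and 13.2 CPM in CCL21-RANK- TECs. Each reporter gene was thus highest in the population sorted for it, and *Ccl21a* in CCL21-RANK+ TECs lay between the other groups. *Ptprc*, which encodes CD45, the protein that the sort selected against, was not at 0 in any library. It was at 3.65, 2.27, and 1.2 CPM in CCL21+RANK-, at 9.46, 3.23, and 7.41 CPM in CCL21-RANK+, and at 1.03 and 0.629 CPM in CCL21-RANK- TECs.

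The 10 thymocyte genes were scarce in every population and most abundant in CCL21-RANK+ TECs. Their summed level was 82.8, 37.9, and 72.8 CPM in the CCL21-RANK+ libraries, 54.5, 21.1, and 27.8 CPM in the CCL21+RANK- libraries, and 16.2 and 13.0 CPM in the CCL21-RANK- libraries. The group means were 64.5 ± 23.5 (SD, n = 3), 34.5 ± 17.7 (SD, n = 3), and 14.6 ± 2.27 CPM (SD, n = 2). Both reporter-positive groups lay wholly above CCL21-RANK- TECs, whereas they overlapped each other, because the highest CCL21+RANK- library exceeded the lowest CCL21-RANK+ library. In counts, the 10 genes together gave between 875 and 5287 counts per library, or 0.00133% to 0.00923% of the library total. *Rag1* alone made up 44.5% to 64.1% of the summed CPM in a library, and *Lck* made up 12.4% to 27.3%. Without these 2 genes the sums were 34.3, 12.9, and 22.6 CPM in CCL21-RANK+, 12.8, 6.21, and 6.78 CPM in CCL21+RANK-, and 3.78 and 2.88 CPM in CCL21-RANK- TECs, with the groups in the same order and the reporter-positive groups only just apart. In these bulk samples, fewer thymocytes and less RNA per cell cannot be told apart, and neither can be told apart from transcription in the TECs themselves.

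**Figure D1:**
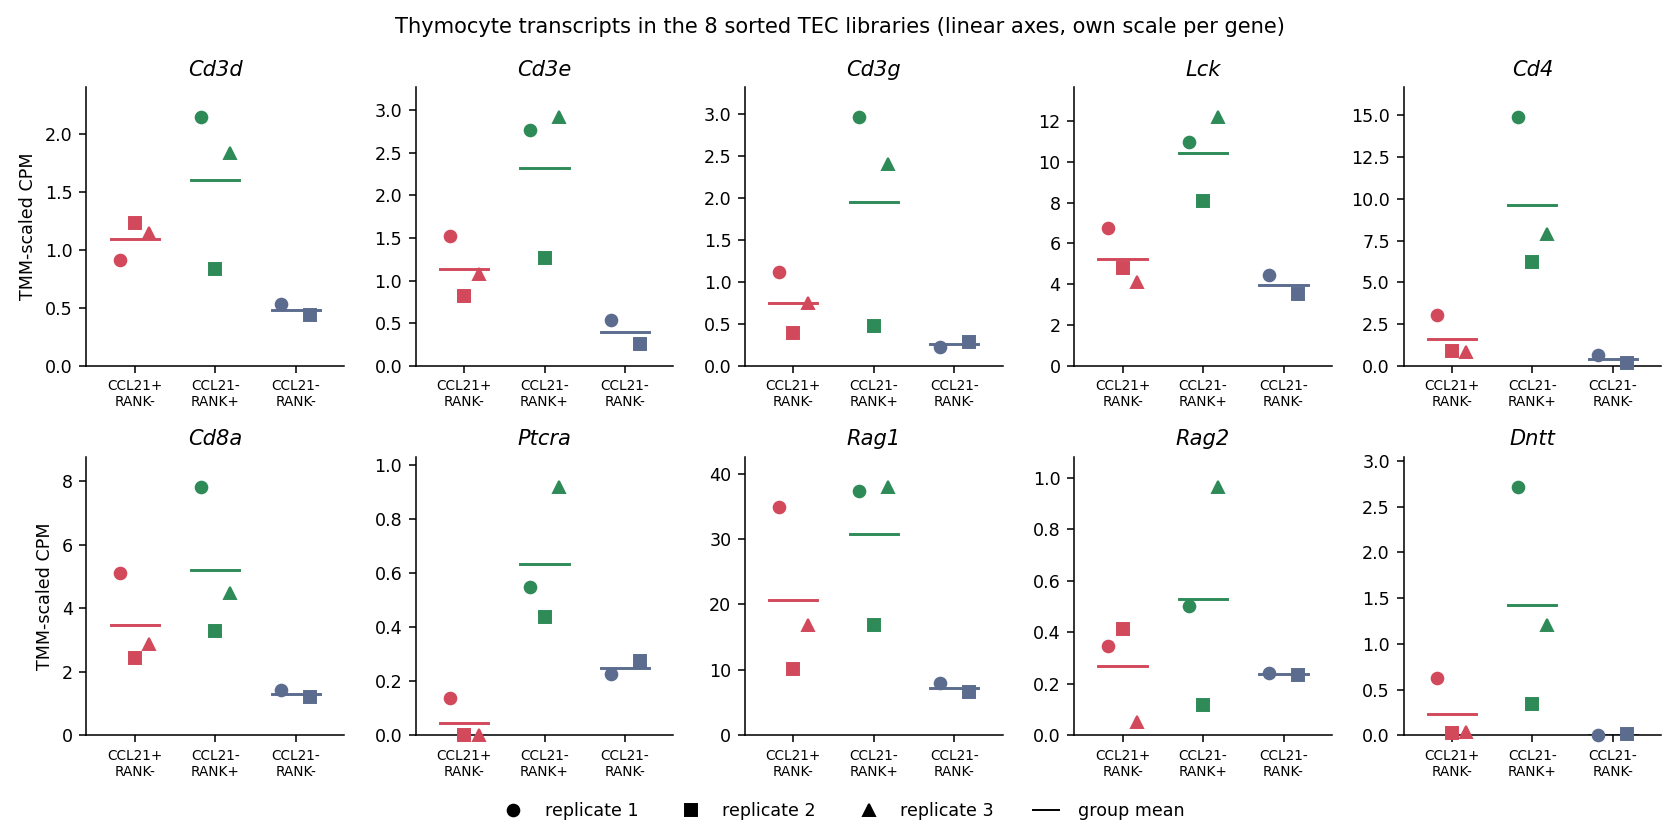
TMM-scaled CPM (vertical axis, linear, with its own scale for each gene) of the 10 thymocyte genes in each library of CCL21+RANK- (n = 3), CCL21-RANK+ (n = 3), and CCL21-RANK- (n = 2) TECs, with symbols for the replicate numbers and lines for the group means. The CCL21-RANK+ mean is the highest for all 10 genes, and replicate 2 is the lowest CCL21-RANK+ library for each of them.

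Within each reporter-positive group, a single library stood apart for most of the genes. Replicate 2 was the lowest of the CCL21-RANK+ libraries for 10 of the 10 genes. Replicate 1 was the highest of the CCL21+RANK- libraries for 8 of the 10, the exceptions being *Cd3d* and *Rag2*. The lowest of that group was replicate 2 for 6 genes and replicate 3 for 4, with a tie at 0 counted for both. In CCL21-RANK- TECs replicate 1 was the higher for 7 genes and replicate 2 for 3. The group means followed the order CCL21-RANK+, CCL21+RANK-, CCL21-RANK- for 9 of the 10 genes, and *Ptcra*, whose CCL21+RANK- mean was the lowest, was the exception.

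In CCL21-RANK+ compared with CCL21-RANK- TECs, 8 of the 10 genes were higher and 0 were lower (edgeR quasi-likelihood test, adjusted p under 0.05 over 21451 genes), while 27.0% of all tested genes passed the test as higher and 21.9% as lower in that comparison. The median log2 fold change of the 10 genes was 2.03, against 0.06 over all tested genes. The libraries of CCL21-RANK+ TECs all exceeded both CCL21-RANK- libraries for 9 of the 10 genes, compared with 36.1% of all genes tested. Leaving out a CCL21-RANK- library leaves 1 in that group, which is then assumed to vary like the other groups. Without its replicate 2, *Cd4* and *Lck* passed (2 of 10), and without its replicate 1, 5 genes passed (*Cd3e*, *Cd4*, *Cd8a*, *Lck*, and *Rag1*). The fold changes remained positive, as for *Cd3e*, at 2.12 and 3.14 on the log2 scale, and *Rag1*, at 1.94 and 2.21.

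In CCL21+RANK- compared with CCL21-RANK- TECs, 0 of the 10 genes passed the edgeR test at an adjusted p under 0.05, where 6.28% of all genes passed as higher and 5.15% as lower. Unadjusted, 5 of the 10 had p under 0.05, compared with 25.1% of all genes, and 3 (*Cd4*, *Cd8a*, and *Rag1*) passed by the DESeq2 Wald test with adjustment. The log2 fold change was positive for 9 of the 10, with a median of 1.46 against 0.00 over all genes. For *Rag2* it was only 0.17, and its sign turned on leaving out CCL21+RANK- replicate 1 or replicate 2. Every CCL21+RANK- library exceeded both CCL21-RANK- libraries for 7 of the 10 genes, compared with 20.1% of all genes, and for *Ptcra* every CCL21+RANK- library was below them. Leaving out a library gave a single called gene in 3 cases, *Ptcra* (lower) without CCL21+RANK- replicate 1, *Rag1* without CCL21+RANK- replicate 2, and *Cd8a* without CCL21-RANK+ replicate 1.

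In CCL21-RANK+ compared with CCL21+RANK- TECs, *Cd4*, *Lck*, and *Ptcra* were higher (3 of 10) and 0 were lower, where 30.6% of all genes passed as higher and 23.1% as lower, so the count of called thymocyte genes is close to the background. The log2 fold change was positive for 10 of the 10, with a median of 1.01 against 0.11 over all genes, and the 3 called genes were also those whose libraries did not overlap, compared with 33.6% of all genes. Without CCL21+RANK- replicate 1, the library with the highest sum of its group, *Dntt* and *Rag1* passed as well (5 of 10), and without CCL21+RANK- replicate 2 or 3 or CCL21-RANK+ replicate 3, *Ptcra* was lost (2 of 10). Without CCL21-RANK+ replicate 2, the lowest of its group, *Cd3g* was gained (4 of 10). The comparisons share their libraries pairwise, and so their fold changes are not independent of each other.

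**Figure D2:**
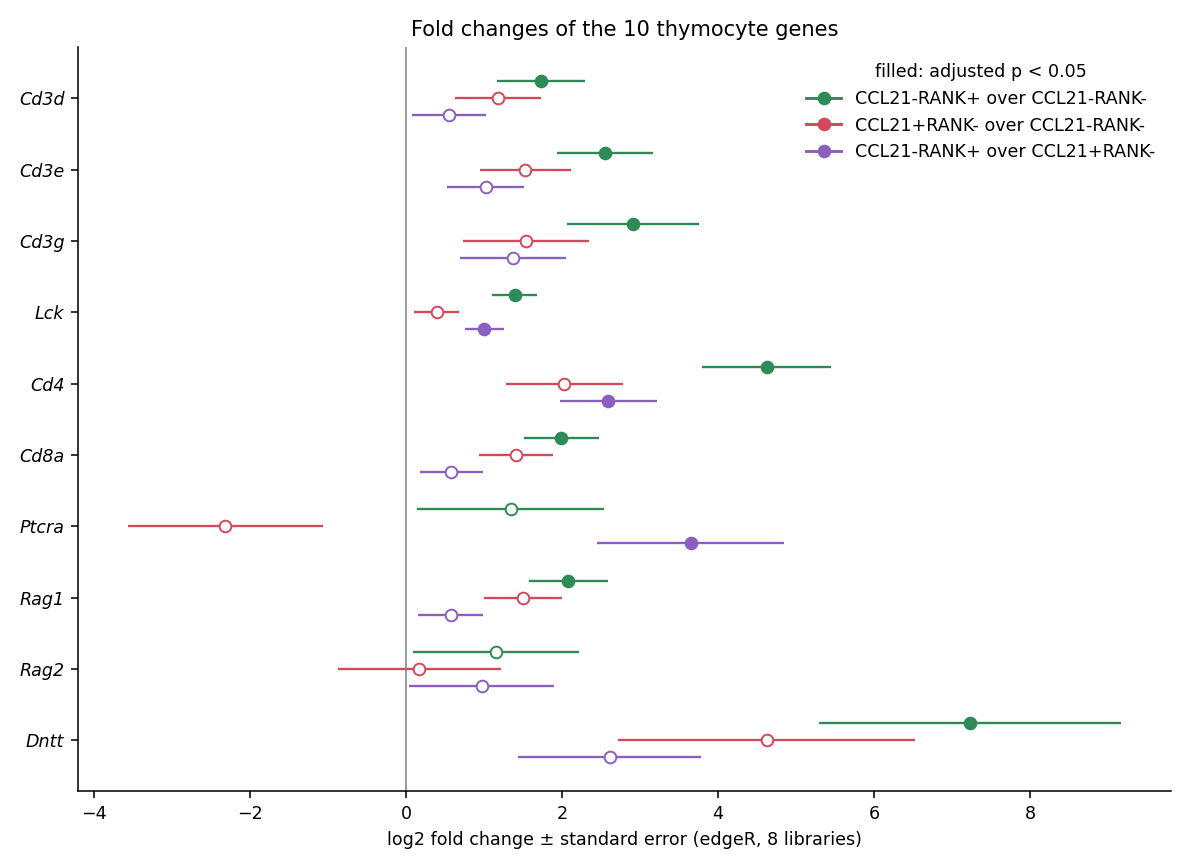
Log2 fold changes (horizontal axis) for the 10 thymocyte genes in the 3 comparisons, fitted in edgeR over 8 libraries, with filled points for an adjusted p under 0.05. Bars are standard errors derived from the F statistic of the test. Filled points are 8 genes for CCL21-RANK+ over CCL21-RANK-, 0 for CCL21+RANK- over CCL21-RANK-, and 3 (*Lck*, *Cd4*, *Ptcra*) for CCL21-RANK+ over CCL21+RANK-.

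*Cd3d*, *Cd3e*, and *Cd3g* encode the CD3 chains that carry the T cell receptor to the surface and relay its signal. They lie side by side on chromosome 9 (GRCm38, GENCODE M21), *Cd3g* at chr9:44969572-44980431 on the minus strand, *Cd3d* at chr9:44981786-44987339 on the plus strand, and *Cd3e* at chr9:44998740-45009627 on the minus strand. *Cd3d* and *Cd3g* run away from each other from neighbouring starts. The 250 bases before each of these starts are shown because both genes were higher for CCL21-RANK+ than for CCL21-RANK- TECs; the sequences are from RefSeq (GRCm38.p6), read in the direction of the gene, with capitals for matches on either strand to the E-box letters CAGGTG and CAGCTG, the Runx letters TGTGGT, the Tcf/Lef letters CTTTGA, the Ets letters CAGGAA, and the GATA letters AGATAA.
Cd3g upstream window, chr9:44980432-44980681, minus strand: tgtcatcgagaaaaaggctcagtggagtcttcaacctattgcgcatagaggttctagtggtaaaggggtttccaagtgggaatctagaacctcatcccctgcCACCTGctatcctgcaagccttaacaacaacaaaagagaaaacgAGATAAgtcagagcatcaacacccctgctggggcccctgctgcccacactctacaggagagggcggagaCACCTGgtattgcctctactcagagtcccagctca
Cd3d upstream window, chr9:44981536-44981785, plus strand: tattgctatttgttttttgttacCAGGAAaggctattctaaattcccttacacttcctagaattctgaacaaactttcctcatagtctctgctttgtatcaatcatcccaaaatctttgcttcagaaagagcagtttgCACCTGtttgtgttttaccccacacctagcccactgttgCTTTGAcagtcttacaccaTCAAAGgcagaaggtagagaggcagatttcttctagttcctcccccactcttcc

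The *Cd3g* window holds CAGGTG 148 and 35 bases before the start and AGATAA 104 bases before it, and the *Cd3d* window holds CAGGAA at 227, CAGGTG at 112, and CTTTGA at 73 and 54 bases before the start, each counted to the first base of the match. Such short motifs are common. Of 32851 RefSeq windows of the same length, 17.2% hold CAGGTG, 25.7% hold CAGGAA, 13.8% hold CTTTGA, and 9.99% hold AGATAA, so these matches are a description of the windows only.

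*Cd3e* was at 2.77, 1.27, and 2.92 CPM in CCL21-RANK+, at 1.52, 0.821, and 1.08 CPM in CCL21+RANK-, and at 0.531 and 0.260 CPM in CCL21-RANK- TECs. All CCL21-RANK+ libraries lay above both CCL21-RANK- libraries, and CCL21-RANK+ replicate 2 lay within the range of CCL21+RANK- TECs. Fitted log2 fold changes were 2.55 (SE 0.61, edgeR adjusted p = 0.00665) for CCL21-RANK+ over CCL21-RANK-, 1.53 (adjusted p = 0.134) for CCL21+RANK- over CCL21-RANK-, and 1.02 (adjusted p = 0.106) for CCL21-RANK+ over CCL21+RANK-. *Cd3d* was at 2.15, 0.832, and 1.84 CPM in CCL21-RANK+, at 0.917, 1.23, and 1.15 CPM in CCL21+RANK-, and at 0.531 and 0.437 CPM in CCL21-RANK- TECs. *Cd3g* was at 2.96, 0.476, and 2.40 CPM in CCL21-RANK+, at 1.11, 0.386, and 0.748 CPM in CCL21+RANK-, and at 0.225 and 0.287 CPM in CCL21-RANK- TECs. Both therefore showed the same low CCL21-RANK+ replicate 2, which for *Cd3d* was below every CCL21+RANK- library. The log2 fold change of CCL21-RANK+ over CCL21-RANK- was 1.73 (edgeR adjusted p = 0.0272) for *Cd3d* and 2.91 (adjusted p = 0.0178) for *Cd3g*. The *Cd3d* call by edgeR was lost on leaving out CCL21-RANK+ replicate 1 (adjusted p = 0.0622) or replicate 3 (adjusted p = 0.0657). Leaving out either CCL21-RANK- library, which leaves 1 in that group, lost the calls of both *Cd3d* and *Cd3g*. Over all single libraries left out, the log2 fold change was 1.47 to 2.04 for *Cd3d* and 2.48 to 3.38 for *Cd3g*. *Cd3e* shares 135 exon bases with the antisense gene *Gm48719*, which had 0 counts.

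*Lck* encodes the kinase that starts T cell receptor signalling from the tails of CD4 and CD8, and lies at chr4:129548344-129573641 on the minus strand. It was at 11.0, 8.10, and 12.2 CPM in CCL21-RANK+, at 6.75, 4.81, and 4.12 CPM in CCL21+RANK-, and at 4.43 and 3.53 CPM in CCL21-RANK- TECs. The CCL21-RANK+ libraries lay above all other libraries, and CCL21+RANK- and CCL21-RANK- TECs overlapped. *Lck* differed by a log2 fold change of 1.39 (SE 0.29, edgeR adjusted p = 0.00352) over CCL21-RANK- and 1.00 (SE 0.25, adjusted p = 0.00812) over CCL21+RANK- TECs, the smallest standard errors among the 10 genes. For CCL21+RANK- over CCL21-RANK- TECs it was 0.39 (adjusted p = 0.449).

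*Cd4*, which encodes the coreceptor for MHC class II, lies at chr6:124864692-124888221 on the minus strand and differed most steeply among the genes with over 50 counts in each group. It was at 14.9, 6.2, and 7.88 CPM in CCL21-RANK+, at 3.06, 0.894, and 0.835 CPM in CCL21+RANK-, and at 0.612 and 0.178 CPM in CCL21-RANK- TECs. The 3 groups did not overlap. The fold change was 24.6 (log2 4.62, SE 0.83, edgeR adjusted p = 0.00134) for CCL21-RANK+ over CCL21-RANK- and 6.01 (log2 2.59, SE 0.62, adjusted p = 0.00607) over CCL21+RANK- TECs. Leaving out each library in turn moved the first between 3.98 and 5.74 and the second between 2.14 and 3.48 on the log2 scale. For CCL21+RANK- over CCL21-RANK- TECs the log2 fold change was 2.03 (adjusted p = 0.121). CD4 is also known on other cells than thymocytes, among them lymphoid tissue inducer cells and some dendritic cells.

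*Cd8a*, which encodes a chain of the coreceptor for MHC class I, lies at chr6:71373427-71379173 on the plus strand. It was at 7.83, 3.27, and 4.49 CPM in CCL21-RANK+, at 5.12, 2.44, and 2.89 CPM in CCL21+RANK-, and at 1.42 and 1.2 CPM in CCL21-RANK- TECs. Both reporter-positive groups lay above CCL21-RANK- TECs and overlapped each other. For *Cd8a* the log2 fold change was 1.99 (SE 0.48, edgeR adjusted p = 0.00741) for CCL21-RANK+ over CCL21-RANK-, 1.41 (SE 0.47, adjusted p = 0.0894) for CCL21+RANK- over CCL21-RANK-, and 0.58 (SE 0.40, adjusted p = 0.253) between the reporter-positive groups. The partner chain gene *Cd8b1* was at 1.75, 1.19, and 1.98 CPM in CCL21-RANK+, at 2.61, 1.16, and 1.15 CPM in CCL21+RANK-, and at 0.386 and 0.246 CPM in CCL21-RANK- TECs. It passed the edgeR test in both reporter-positive groups over CCL21-RANK- TECs, with log2 fold changes of 2.37 (adjusted p = 0.00867) and 2.37 (adjusted p = 0.0313).

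The 2 coreceptor genes therefore stood in different proportions in the groups. Per length, in RPKM (counts scaled by exon length and library total), the ratio of *Cd4* to *Cd8a* was 1.71, 1.71, and 1.58 among CCL21-RANK+ libraries, 0.539, 0.330, and 0.261 among CCL21+RANK- libraries, and 0.390 and 0.133 among CCL21-RANK- libraries. *Cd4* exceeded *Cd8a* in each CCL21-RANK+ library and was below it in each of the others. The ratio of *Lck* to *Cd3e*, by contrast, overlapped between the reporter-positive groups, at 5.55, 8.90, and 5.83 for CCL21-RANK+ and 6.17, 8.15, and 5.32 for CCL21+RANK- TECs, and was 11.6 and 18.9 for CCL21-RANK- TECs. The ratio of *Rag1* to *Cd3e* was 8.33, 8.23, and 8.03 for CCL21-RANK+, 14.2, 7.61, and 9.65 for CCL21+RANK-, and 9.30 and 15.7 for CCL21-RANK- TECs. No test was made on these ratios, and the CCL21-RANK- ratios to *Cd3e* rest on 33 and 19 *Cd3e* counts.

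**Figure D3:**
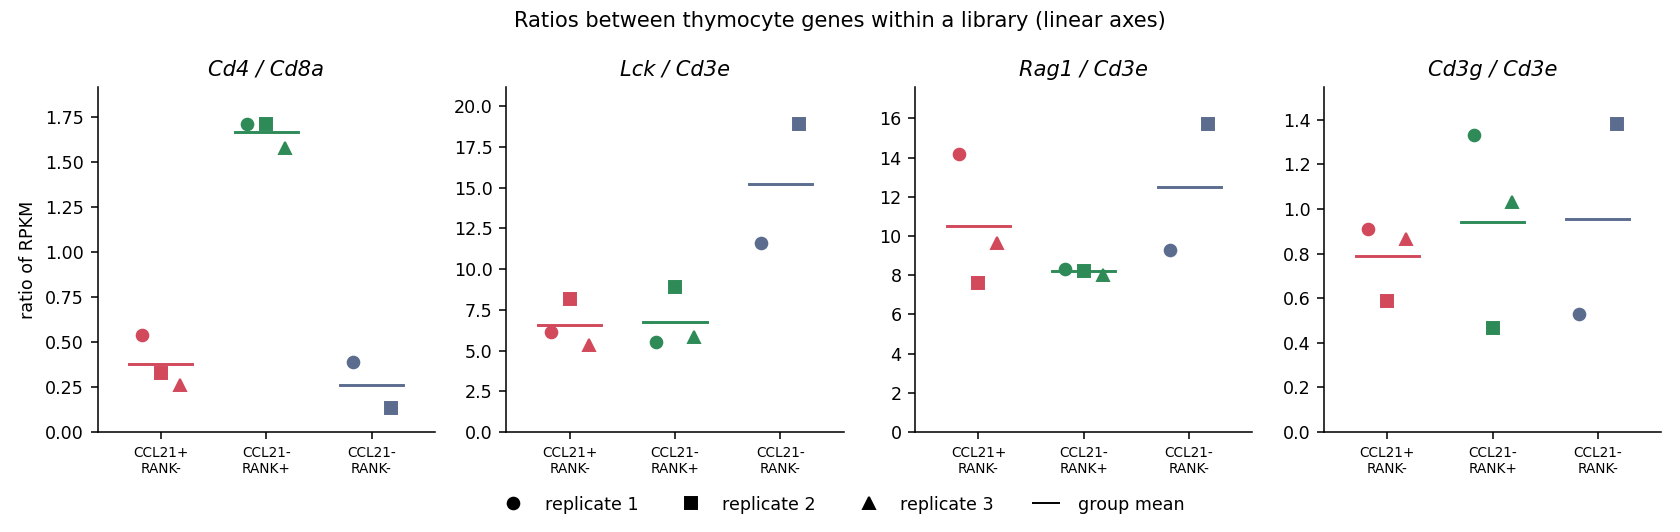
Ratios of RPKM between thymocyte genes within each library (vertical axes, linear), for CCL21+RANK- (n = 3), CCL21-RANK+ (n = 3), and CCL21-RANK- (n = 2) TECs, with symbols for the replicate numbers and lines for the group means. The ratio of *Cd4* to *Cd8a* is 1.58 to 1.71 for CCL21-RANK+ and at most 0.539 in the other libraries, while the plotted ratios of *Lck*, *Rag1*, and *Cd3g* to *Cd3e* overlap between the reporter-positive groups.

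*Rag1* and *Rag2* encode the recombinase that cuts receptor genes, and lie next to each other on chromosome 2, *Rag1* at chr2:101638282-101649501 on the minus strand and *Rag2* at chr2:101624718-101632529 on the plus strand. The 250 bases before each start, again from RefSeq and marked for the same motifs, are shown because these neighbours, whose products work together, were the most abundant and among the least abundant of the 10 genes in CPM.
Rag1 upstream window, chr2:101649533-101649782, minus strand: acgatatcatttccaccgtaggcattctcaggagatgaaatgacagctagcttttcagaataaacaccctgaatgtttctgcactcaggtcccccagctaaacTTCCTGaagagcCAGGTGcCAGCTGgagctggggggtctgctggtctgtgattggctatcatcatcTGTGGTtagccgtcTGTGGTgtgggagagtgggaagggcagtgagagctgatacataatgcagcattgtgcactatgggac
Rag2 upstream window, chr2:101624462-101624711, plus strand: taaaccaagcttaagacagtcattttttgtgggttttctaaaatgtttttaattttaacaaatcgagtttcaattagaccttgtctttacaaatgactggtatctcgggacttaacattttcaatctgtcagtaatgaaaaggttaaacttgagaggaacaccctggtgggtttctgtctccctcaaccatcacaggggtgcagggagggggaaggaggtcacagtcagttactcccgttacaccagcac

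The *Rag1* window holds CAGGAA at 147, CAGGTG at 135, CAGCTG at 128, and TGTGGT at 81 and 67 bases before the start, and the *Rag2* window holds 0 matches. Among all windows, 13.0% hold CAGCTG and 14% hold TGTGGT. Of the 10 windows found for the thymocyte genes (*Lck* has 2), CAGGTG was in 4, CAGCTG in 2, TGTGGT in 2, CTTTGA in 1, CAGGAA in 5, and AGATAA in 2. *Cd4* had no entry.

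*Rag1* was at 37.4, 16.9, and 38.0 CPM in CCL21-RANK+, at 34.9, 10.1, and 16.9 CPM in CCL21+RANK-, and at 8.00 and 6.59 CPM in CCL21-RANK- TECs. Both reporter-positive groups lay above CCL21-RANK- TECs and overlapped widely with each other. For *Rag1* the log2 fold change was 2.08 (SE 0.51, edgeR adjusted p = 0.00821) for CCL21-RANK+ over CCL21-RANK-, 1.5 (SE 0.50, adjusted p = 0.0889) for CCL21+RANK- over CCL21-RANK-, and 0.57 (SE 0.42, adjusted p = 0.285) between the reporter-positive groups. Without CCL21+RANK- replicate 1, the last became 1.19 (adjusted p = 0.0223). *Rag2* was at 0.501, 0.119, and 0.965 CPM in CCL21-RANK+, at 0.346, 0.411, and 0.0522 CPM in CCL21+RANK-, and at 0.242 and 0.232 CPM in CCL21-RANK- TECs. All groups overlapped. With 153 counts in the 8 libraries, the pooled counts gave a ratio of 2.16 (95% counting interval 1.42 to 3.35) for CCL21-RANK+ over CCL21-RANK- TECs, but the difference was within the spread between libraries (log2 fold change 1.15, SE 1.06, edgeR adjusted p = 0.405). The ratio of *Rag1* to *Rag2* in RPKM ranged from 12.8 to 167 among the CCL21+RANK- libraries alone. *Rag1* shares 80 exon bases with *B230118H07Rik* on the same strand and *Rag2* shares 208 with it on the opposite strand. That gene was at 3.65 to 7.70 CPM in the 8 libraries and did not pass the test in any comparison (edgeR adjusted p = 0.295 for CCL21-RANK+ over CCL21-RANK-), so reads could be divided among these genes.

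*Dntt*, at chr19:41029275-41059525 on the plus strand, encodes the transferase that diversifies receptor joints and was confined almost wholly to reporter-positive TECs in counts. It had 174, 17, and 54 counts among CCL21-RANK+ libraries, 36, 1, and 2 among CCL21+RANK- libraries, and 0 and 1 among CCL21-RANK- libraries. In CPM these were 2.72, 0.337, and 1.21, then 0.623, 0.0241, and 0.0348, and then 0 and 0.0137. *Dntt* passed the filter on low counts only through reporter-positive libraries, so it could hardly be called lower over CCL21-RANK- TECs. The counts gave a ratio of 209 (95% counting interval 37.1 to 8270) for CCL21-RANK+ over CCL21-RANK- TECs, from 245 against 1 count. The fitted log2 fold change was 7.23 (SE 1.94, edgeR adjusted p = 0.0122), and the call was lost on leaving out either CCL21-RANK- library (adjusted p = 0.0849 and 0.0625). For CCL21+RANK- over CCL21-RANK- TECs, where 36 of the 39 counts came from replicate 1, the log2 fold change was 4.62 (adjusted p = 0.164), and for CCL21-RANK+ over CCL21+RANK- TECs it was 2.61 (adjusted p = 0.0857). Intervals from counts cover counting error only.

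*Ptcra*, at chr17:46755663-46763712 on the minus strand, encodes the pre-T alpha chain of early thymocytes and was the gene with another order of groups. It was at 0.548, 0.436, and 0.920 CPM in CCL21-RANK+, at 0.138, 0, and 0 CPM in CCL21+RANK-, and at 0.225 and 0.273 CPM in CCL21-RANK- TECs. The 3 groups did not overlap, with CCL21+RANK- TECs lowest. In counts these were 98 for CCL21-RANK+, 8 for CCL21+RANK-, and 34 for CCL21-RANK- TECs. The log2 fold change was 3.65 (SE 1.2, edgeR adjusted p = 0.0266) for CCL21-RANK+ over CCL21+RANK- TECs, 1.34 (SE 1.2, adjusted p = 0.389) over CCL21-RANK-, and -2.32 (SE 1.25, adjusted p = 0.29) for CCL21+RANK- over CCL21-RANK- TECs. The call between the reporter-positive groups was lost without CCL21+RANK- replicate 2 (adjusted p = 0.0617), CCL21+RANK- replicate 3 (adjusted p = 0.0535), or CCL21-RANK+ replicate 3 (adjusted p = 0.0689). Without CCL21+RANK- replicate 1, it was kept at a log2 fold change of 8.16, a value that then rests on a group at 0.

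Compared per length, *Rag1* and *Lck* were the most abundant of the 10 genes in each group. In CCL21-RANK+ TECs *Rag1* was at 4.96 ± 2.07 RPKM (SD, n = 3), *Lck* at 3.78 ± 0.862, *Cd4* at 2.56 ± 1.36, *Cd8a* at 1.53 ± 0.777, and *Cd3d* at 0.945 ± 0.439. Neighbours in this order differed by less than their spread. In CCL21+RANK- TECs *Rag1* was at 3.05 ± 1.90 RPKM (SD, n = 3), *Lck* at 1.73 ± 0.438, and *Cd8a* at 0.932 ± 0.391, while *Cd4*, at 0.384 ± 0.305, came after *Cd3d*, at 0.587 ± 0.0878. *Lck* and *Cd8a* differed there by more than their spread, and *Rag1* and *Lck* did not. In CCL21-RANK- TECs *Lck* was at 1.31 ± 0.115 RPKM (SD, n = 2), *Rag1* at 1.07 ± 0.0684, and *Cd8a* at 0.348 ± 0.0148, and the other 7 genes were each below *Cd8a*. In this group *Lck* and *Rag1* differed from each other, and from the rest, by more than the SD of its 2 libraries.

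The receptor chains were measured as constant-region genes, whose counts do not tell rearranged from unrearranged transcripts. Of 8 such genes, 7 were tested, and 4 (*Trac*, *Trbc1*, *Trbc2*, and *Tcrg-C1*) were higher for CCL21-RANK+ than for CCL21-RANK- TECs (median log2 fold change 3.21, against 0.06 over all genes), where 27.0% of all genes were higher and 21.9% lower. Of the 7, 0 passed between CCL21+RANK- and CCL21-RANK- TECs, where 6.28% and 5.15% of all genes did, and 2 were higher for CCL21-RANK+ than for CCL21+RANK- TECs, the last a share near the 30.6% of all genes. *Trbc2*, a beta chain constant region, was at 7.02, 3.43, and 6.46 CPM in CCL21-RANK+, at 5.60, 3.45, and 4.57 CPM in CCL21+RANK-, and at 2.80 and 1.78 CPM in CCL21-RANK- TECs (log2 fold change 1.30, edgeR adjusted p = 0.0223, for CCL21-RANK+ over CCL21-RANK-). *Trbc1*, the other beta constant region, was at 1.33 to 3.50 CPM in CCL21-RANK+, at 1.81 to 2.32 CPM in CCL21+RANK-, and at 0.982 and 0.697 CPM in CCL21-RANK- TECs. *Trac*, the alpha constant region, which is joined later in development than beta, was at 0.611, 0.713, and 0.426 CPM in CCL21-RANK+, at 0.588, 0.0966, and 0.0174 CPM in CCL21+RANK-, and at 0.0322 and 0 CPM in CCL21-RANK- TECs. Beta constant-region genes thus had counts in all 8 libraries and *Trac* in 7. For *Trac* these were only 4 and 1 counts in CCL21+RANK- replicates 2 and 3 and 2 counts in CCL21-RANK- replicate 1.

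Of the gamma and delta constant regions, which belong to the other T cell lineage, *Tcrg-C1* was at 0.752, 1.31, and 1.21 CPM in CCL21-RANK+ and at no more than 0.169 CPM in the other libraries, and was higher there than in either of the other groups (log2 fold changes 3.69, edgeR adjusted p = 0.00959, and 3.70, adjusted p = 0.00379). *Trdc* was at 0.689, 0.297, and 0.808 CPM in CCL21-RANK+ and at no more than 0.178 CPM elsewhere, and passed against CCL21+RANK- TECs (log2 fold change 2.64, adjusted p = 0.0135) and not against CCL21-RANK- TECs (1.87, adjusted p = 0.0841). *Tcrg-C2* and *Tcrg-C4* did not pass in any comparison, and *Tcrg-C3* was too low to be tested. The constant regions of *Tcrg* and of *Trbc* are near copies, among which reads may have been divided.

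Among 26 further genes of T cell surface proteins and signalling, 14 were higher and 1 was lower for CCL21-RANK+ than for CCL21-RANK- TECs (median log2 fold change 2.47). In CCL21+RANK- over CCL21-RANK- TECs 2 were higher, *Cd8b1* and *Lcp2*, and 0 were lower (median 0.85), and in CCL21-RANK+ over CCL21+RANK- TECs 7 were higher and 1 was lower (median 1.15). In the first comparison 27.0% of all genes were called higher and 21.9% lower. In the second 6.28% and 5.15% were, and the 2 genes called higher are near that share. In the third 30.6% and 23.1% were, and the 7 genes called higher are no larger a share. *Thy1*, a surface glycoprotein of thymocytes that other cells also make, was at 27.2, 14.2, and 14.4 CPM in CCL21-RANK+, at 4.01, 2.56, and 2.30 CPM in CCL21+RANK-, and at 1.80 and 1.28 CPM in CCL21-RANK- TECs. *Cd6*, a T cell adhesion receptor, was at 12.6, 6.30, and 6.73 CPM in CCL21-RANK+ and at no more than 1.97 CPM in the other libraries. *Lcp2*, which encodes the adaptor SLP-76, was at 4.12, 0.733, and 1.32 CPM in CCL21-RANK+, at 3.49, 1.55, and 1.06 CPM in CCL21+RANK-, and at 0.225 and 0.0273 CPM in CCL21-RANK- TECs, and passed in both reporter-positive groups over CCL21-RANK- TECs (edgeR adjusted p = 0.0124 and 0.0427). *Rhoh*, a small GTPase of hematopoietic cells, had a log2 fold change of 2.01 (adjusted p = 0.0163) for CCL21-RANK+ over CCL21-RANK- TECs. The most abundant genes of this list did not follow the others. *Ptpn22*, a phosphatase, was lower in CCL21-RANK+ TECs, at 13.6 to 20 CPM against 34.3 to 51.1 CPM elsewhere, and *Fyn*, a kinase that many cell types use, was at 17.6 to 25.3 CPM in all libraries and did not pass in any comparison.

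Transcription factors of the T lineage were called in both directions. Of 16 genes, 9 were higher and 3 lower for CCL21-RANK+ than for CCL21-RANK- TECs (median log2 fold change 0.98), where 27.0% and 21.9% of all genes were called higher and lower. Of the same genes, 4 were higher and 2 lower for CCL21+RANK- than for CCL21-RANK- TECs (0.49), where 6.28% and 5.15% of all genes were called, and 6 were higher and 5 lower for CCL21-RANK+ than for CCL21+RANK- TECs (0.35), where 30.6% and 23.1% of all genes were called higher and lower. *Ikzf1*, which encodes Ikaros, was at 215, 231, and 229 CPM in CCL21-RANK+ TECs and at 1.5 to 4.81 CPM in the other libraries (log2 fold change 6.62, edgeR adjusted p = 1.1e-06, over CCL21-RANK-), a level far above that of any of the 10 thymocyte genes. *Ets1* was at 72.2 to 85.7 CPM in CCL21+RANK-, 30.8 to 34.6 CPM in CCL21-RANK+, and 39.0 and 42.3 CPM in CCL21-RANK- TECs. *Tcf12*, which encodes the E protein HEB, was at 63.8 to 81.2 CPM in CCL21-RANK+ and 109 to 159 CPM in the other libraries. *Satb1*, a chromatin organizer, was at 37.4 to 51.3 CPM in CCL21-RANK+ TECs and 29.9 to 36.1 CPM in CCL21+RANK- TECs (log2 fold change 0.47, edgeR adjusted p = 0.0178), with 45.9 and 39.7 CPM in CCL21-RANK- TECs. Replicate 2, the lowest CCL21-RANK+ library for the 10 thymocyte genes, was not the lowest for *Ikzf1*, *Ets1*, or *Tcf12*.

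Of 12 genes that mark early thymocyte stages, 6 were higher and 4 lower for CCL21-RANK+ than for CCL21-RANK- TECs (median log2 fold change 2.82), where 27.0% and 21.9% of all genes were. For CCL21+RANK- over CCL21-RANK- TECs 1 was higher and 2 lower (-0.06), where 6.28% and 5.15% of all genes were. For CCL21-RANK+ over CCL21+RANK- TECs 7 were higher and 3 lower (1.02), where 30.6% and 23.1% of all genes were. The 1 higher and the 3 lower genes are near those shares. *Kit*, the stem cell factor receptor, was at 136, 132, and 143 CPM in CCL21-RANK+ TECs and at 3.86 to 11.6 CPM elsewhere, whereas *Il2ra*, the CD25 chain, was at 74.6 to 121 CPM in CCL21-RANK+, 94.2 to 181 CPM in CCL21+RANK-, and 28.3 and 18.7 CPM in CCL21-RANK- TECs. *Notch1*, the receptor that commits precursors to the T lineage, was at 232 to 274 CPM in CCL21-RANK+ TECs and 127 to 183 CPM elsewhere, and was higher there than in either of the other groups (edgeR adjusted p = 0.000199 over CCL21-RANK- and 0.00136 over CCL21+RANK-), and *Hes1*, a Notch target, was at 22.8 to 35.1 CPM in CCL21-RANK+ and 45.9 to 62.3 CPM in the other libraries. Many of these genes are not restricted to thymocytes. Of 11 genes of the double-positive and later stages, 8 were higher and 0 lower for CCL21-RANK+ than for CCL21-RANK- TECs (median 2.37, with 27.0% of all genes higher), 2 were higher for CCL21+RANK- than for CCL21-RANK- TECs (1.10, with 6.28% of all genes), and 4 were higher for CCL21-RANK+ than for CCL21+RANK- TECs (0.99), close to the 30.6% of all genes. *Ccr7*, the receptor for CCL21, was at 18.7, 7.73, and 11.4 CPM in CCL21-RANK+ TECs and at no more than 0.113 CPM in the other libraries. *S1pr1*, an exit receptor, was at 29.5 to 31.5 CPM in CCL21-RANK+, 15.9 to 18.3 CPM in CCL21+RANK-, and 8.58 and 7.23 CPM in CCL21-RANK- TECs, and *Klf2*, which controls it in T cells, was at 10.1 to 15.0, 7.51 to 29.8, and 3.64 to 5.46 CPM. *Cd1d1*, which presents lipids, was at 13.4 to 18.2 CPM in CCL21-RANK+ TECs and 7.02 to 12.4 CPM in CCL21+RANK- TECs (log2 fold change 0.84, edgeR adjusted p = 0.0107), with 10.9 and 10.8 CPM in CCL21-RANK- TECs.

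Markers of cells that the CD45-EpCAM+ gate would remove were also measured. A gene with almost no counts in a group passes the filter on low counts only through the other groups. Such a gene can hardly be called lower over that group, so its call as higher is a description only. The shares of all genes against which the list counts stand are, called higher and lower, 27.0% and 21.9% for CCL21-RANK+ over CCL21-RANK-, 6.28% and 5.15% for CCL21+RANK- over CCL21-RANK-, and 30.6% and 23.1% for CCL21-RANK+ over CCL21+RANK- TECs. Of 20 leukocyte genes, 17 were higher and 1 lower for CCL21-RANK+ than for CCL21-RANK- TECs (median log2 fold change 4.13, or 3.94 with the 1 gene at 0 in the latter set to its bound), 1 was higher and 0 lower for CCL21+RANK- than for CCL21-RANK- TECs (1.06), near the share of all genes, and 15 were higher and 1 lower for CCL21-RANK+ than for CCL21+RANK- TECs (2.31). Their summed level was 1180, 648, and 779 CPM in CCL21-RANK+, 239, 219, and 194 CPM in CCL21+RANK-, and 140 and 141 CPM in CCL21-RANK- TECs. The most abundant, *Laptm5*, a lysosomal protein of hematopoietic cells, was at 559, 280, and 367 CPM in CCL21-RANK+ TECs and at 0.998 to 3.75 CPM elsewhere. *Rac2*, a hematopoietic GTPase, was at 50.9 to 99.2 CPM in CCL21-RANK+ and at 0.383 to 1.93 CPM elsewhere. *Lcp1*, an actin bundler, was at 116 to 193, 69.1 to 97.5, and 23.2 to 27.2 CPM, and *Arhgdib* was at 93.6 to 117 CPM in CCL21-RANK+ TECs and 78.9 to 98.8 CPM elsewhere (edgeR adjusted p = 0.0424 over CCL21-RANK-). *Ptprc* had a log2 fold change of 3.01 (SE 0.62, edgeR adjusted p = 0.00304) over CCL21-RANK- and 1.5 (SE 0.50, adjusted p = 0.028) over CCL21+RANK- TECs, and its lowest CCL21-RANK+ library was replicate 2, as for the 10 thymocyte genes. The RPKM ratio of *Cd3e* to *Ptprc* was 1.32, 1.76, and 1.77 for CCL21-RANK+, 1.87, 1.62, and 4.03 for CCL21+RANK-, and 2.31 and 1.85 for CCL21-RANK- TECs. The CCL21+RANK- libraries overlapped both other groups, and every CCL21-RANK+ library was below both CCL21-RANK- libraries. That gap, 1.77 against 1.85 where closest, is small for the counts behind it. The CCL21-RANK- ratios rest on 33 and 19 *Cd3e* counts over 64 and 46 *Ptprc* counts, and no test was made on them. For CCL21-RANK+ over CCL21-RANK- TECs the median log2 fold change was 4.13 for the leukocyte list, against 2.03 for the thymocyte genes. Its abundant members differed widely, at 7.64 for *Laptm5*, 6.94 for *Rac2*, 2.51 for *Lcp1*, and 0.36 for *Arhgdib*. The lower gene of the list was *Itgb2*, an integrin gene, at -2.04 (edgeR adjusted p = 5.39e-05). It was at 5.61, 4.78, and 4.65 CPM in CCL21-RANK+ TECs and at 16.4 to 27.9 CPM elsewhere.

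Myeloid and dendritic cell markers were highest in CCL21-RANK+ TECs. Of 16 myeloid and dendritic genes, 15 were tested, and 15 were higher than in CCL21-RANK- TECs (median log2 fold change 5.61, or 5.40 with the 1 gene at 0 set to its bound) and 13 higher than in CCL21+RANK- TECs (5.04), while 1 was higher for CCL21+RANK- than for CCL21-RANK- TECs (0.76, or 0.67 with the bound). The shares of all genes called higher were 27.0%, 30.6%, and 6.28% in turn, and the last count is near its share. Several of these genes, among them *Lyz2*, *Mpo*, and *Adgre1*, were near 0 outside CCL21-RANK+ TECs, so a lower call was hardly possible for them. The sums of the list were 174, 68.6, and 84.2 CPM in CCL21-RANK+, 16.4, 11.1, and 10.8 CPM in CCL21+RANK-, and 3.98 and 4.11 CPM in CCL21-RANK- TECs. *Zbtb46*, a factor of conventional dendritic cells and the most abundant of the list, was at 23.0 to 28.3 CPM in CCL21-RANK+, 9.74 to 13.5 CPM in CCL21+RANK-, and 2.59 and 3.21 CPM in CCL21-RANK- TECs. *Lyz2*, lysozyme, was at 61.7, 19.3, and 22.5 CPM in CCL21-RANK+ and at no more than 0.225 CPM elsewhere, *Mpo*, a neutrophil granule enzyme, was at 29.3, 6.78, and 10.3 CPM against at most 0.208 CPM, and *Adgre1*, which encodes F4/80, was at 9.57, 6.84, and 3.66 CPM against at most 0.129 CPM.

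Of 10 B cell genes, 8 were higher for CCL21-RANK+ than for CCL21-RANK- TECs (median log2 fold change 6.19, or 4.52 with the 4 genes at 0 set to their bounds), 0 differed between CCL21+RANK- and CCL21-RANK- TECs (1.13, or 0.85 with the bounds), and 6 were higher for CCL21-RANK+ than for CCL21+RANK- TECs (3.39). Among all genes, 27.0%, 6.28%, and 30.6% were called higher in these comparisons. The 4 genes at 0 in CCL21-RANK- TECs passed the filter on low counts through other groups, so they could not be called lower over that group. The sums of the B cell list were 61.2, 41.1, and 55.1 CPM in CCL21-RANK+, 15.0, 17.6, and 19.5 CPM in CCL21+RANK-, and 6.70 and 11.8 CPM in CCL21-RANK- TECs. *Ebf1*, the most abundant, was at 15.3 to 20.2, 12.6 to 17.3, and 5.70 to 10.8 CPM. *Pax5*, the B lineage factor, had 1589 counts in CCL21-RANK+ and 0 for CCL21-RANK- TECs, at least 451-fold higher against a floor of 3 counts over the group, and the light chain gene *Igkc* was at 11.4, 8.28, and 13.4 CPM in CCL21-RANK+ TECs and at 0 in each CCL21+RANK- library. *Cd79b*, of the B cell receptor, was at 6.56 to 10.9 CPM in CCL21-RANK+ and at 0.225 to 1.07 CPM elsewhere.

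Of 12 innate lymphoid genes, 10 were tested, and 9 were higher and 0 lower for CCL21-RANK+ than for CCL21-RANK- TECs (median log2 fold change 7.02, or 5.21 with 5 genes at their bounds), 1 was higher for CCL21+RANK- than for CCL21-RANK- TECs (1.49, or 1.35), and 9 were higher and 1 lower for CCL21-RANK+ than for CCL21+RANK- TECs (5.95, or 4.89). Against these counts, 27.0%, 6.28%, and 30.6% of all genes were called higher, and the second count is near its share. In the first comparison, the 5 genes at their bounds had 0 counts in CCL21-RANK- TECs. They passed the filter on low counts through other groups, so they could not be called lower over that group. The sums of the list overlapped, at 133, 94.4, and 101 CPM in CCL21-RANK+ and 115, 89.0, and 84.5 CPM in CCL21+RANK- TECs, with 55.0 and 62.8 CPM in CCL21-RANK- TECs, because the most abundant, the interleukin 1 receptor gene *Il1r1*, was at 82.6 to 112 CPM in CCL21+RANK- TECs. *Ltb*, which encodes lymphotoxin beta, was at 38.7, 30.8, and 28.8 CPM in CCL21-RANK+ and at no more than 0.661 CPM elsewhere. *Il23r*, the interleukin 23 receptor gene, had 1257 counts in CCL21-RANK+ and 0 for CCL21-RANK- TECs, at least 357-fold higher. *Id2* was at 5.34 to 6.46 CPM in CCL21-RANK+ and 0.835 to 2.72 CPM elsewhere, and *Ncr1*, a defining natural killer marker, was at 0 in all 8 libraries.

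The non-hematopoietic lists differed as well. As background, 27.0% of all genes were called higher for CCL21-RANK+ over CCL21-RANK-, 6.28% for CCL21+RANK- over CCL21-RANK-, and 30.6% for CCL21-RANK+ over CCL21+RANK- TECs. Of 6 endothelial genes, 5 were tested, and 3, *Tek*, *Pecam1*, and *Cdh5*, were higher for CCL21-RANK+ TECs than for either of the other groups (medians 3.55 and 2.78), with 0 between the other groups (0.85). Their sums were 19.2, 11.9, and 9.11 CPM in CCL21-RANK+, 2.04, 2.85, and 1.62 CPM in CCL21+RANK-, and 1.22 and 0.67 CPM in CCL21-RANK- TECs. Of 7 mesenchymal genes, 5 were higher for CCL21-RANK+ than for CCL21-RANK- TECs (3.96), 1 was higher for CCL21+RANK- than for CCL21-RANK- TECs (-0.78), and 5 were higher and 1 lower for CCL21-RANK+ than for CCL21+RANK- TECs (3.60). Their sums were 299, 166, and 196 CPM in CCL21-RANK+, 25.2, 26.7, and 14.8 CPM in CCL21+RANK-, and 35.8 and 15.1 CPM in CCL21-RANK- TECs. *Col1a1*, a fibrillar collagen gene and the most abundant, was at 141, 48.4, and 96.9 CPM in CCL21-RANK+ TECs and at 1.2 to 11.2 CPM elsewhere, *Dcn*, decorin, at 36.0 to 59.3 against 1.88 to 4.81 CPM, *Col1a2* at 22.8 to 42.2 against 4.62 to 10.2 CPM, and *Pdgfrb* at 22.1 to 33.5 against 0.122 to 1.06 CPM. *Pdgfra*, named after its values were seen, went the other way, at 0.292 to 1.1 CPM in CCL21-RANK+ and 1.48 to 2.72 CPM in CCL21+RANK- TECs (log2 fold change -1.67, edgeR adjusted p = 0.0283). The summed leukocyte, endothelial, and mesenchymal lists were each highest in CCL21-RANK+ TECs.

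**Figure D4:**
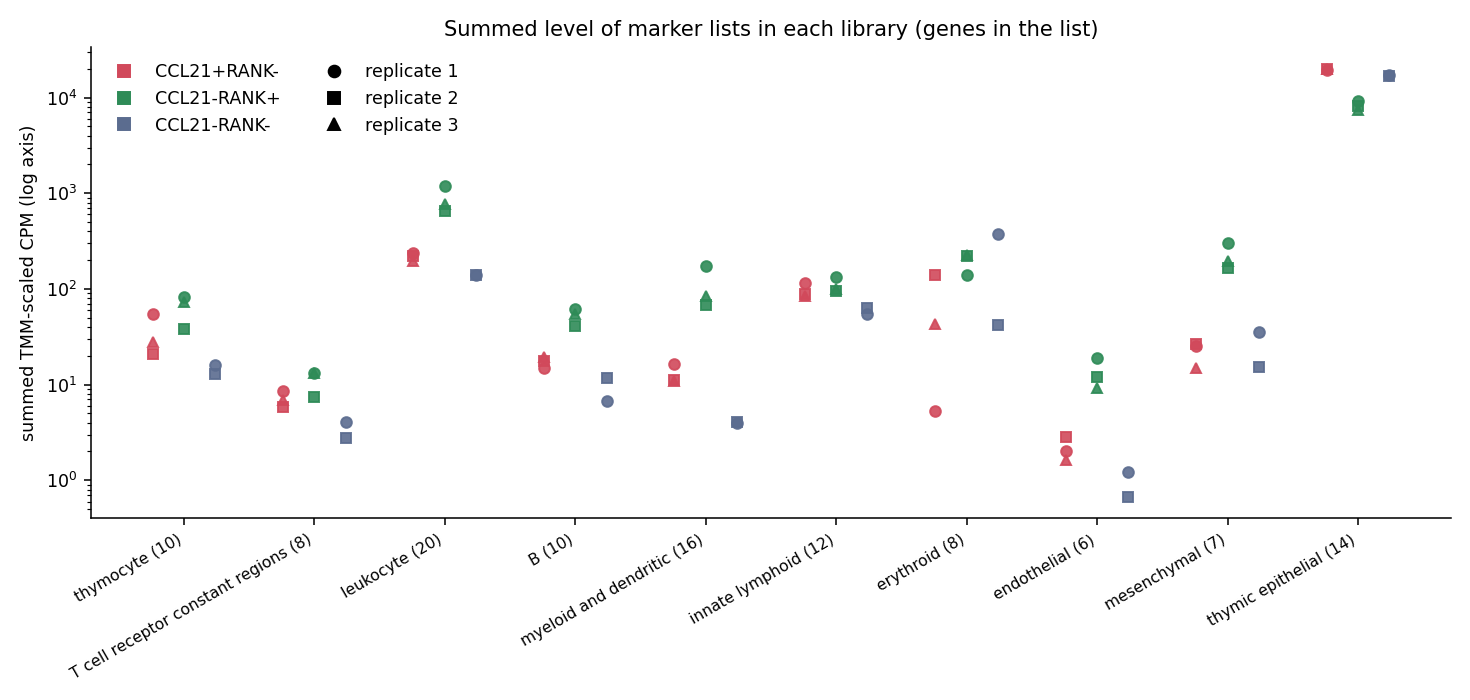
Summed TMM-scaled CPM (vertical axis, logarithmic) of the genes of each marker list in each library, with colours for CCL21+RANK-, CCL21-RANK+, and CCL21-RANK- TECs and symbols for the replicate numbers; the number of genes stands beside each list. For the thymocyte list the groups lie at 37.9 to 82.8 CPM (CCL21-RANK+), 21.1 to 54.5 CPM (CCL21+RANK-), and 13.0 and 16.2 CPM (CCL21-RANK-), a narrower separation than for the myeloid and dendritic list at 68.6 to 174, 10.8 to 16.4, and 3.98 and 4.11 CPM.

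Thymic epithelial genes exceeded all of these lists by far. Of 14, 4 were higher and 10 lower for CCL21-RANK+ than for CCL21-RANK- TECs (median log2 fold change -1.89), 1 was higher and 1 lower for CCL21+RANK- than for CCL21-RANK- TECs (0.06), and 3 were higher and 11 lower for CCL21-RANK+ than for CCL21+RANK- TECs (-2.28). All genes were called higher and lower at 27.0% and 21.9%, 6.28% and 5.15%, and 30.6% and 23.1% in turn, so the second pair of counts is near background. The sums of the epithelial list were 9160, 8070, and 7470 CPM in CCL21-RANK+, 19400, 20000, and 19700 CPM in CCL21+RANK-, and 17400 and 16800 CPM in CCL21-RANK- TECs. *Prss16*, a cortical TEC protease, was at 241 to 418 CPM in CCL21-RANK+ and 3770 to 4420 CPM elsewhere, *Krt18* at 543 to 686 against 2950 to 3510 CPM, and *Krt8* at 999 to 1130 against 2650 to 3070 CPM, while *Cd74*, the MHC class II invariant chain, was at 3280 to 5180 against 1490 to 2420 CPM. *Aire* was at 449, 358, and 418 CPM in CCL21-RANK+ and at no more than 3.43 CPM in the other libraries. The group with the most thymocyte transcripts was therefore also the group with the most *Ptprc*, the most leukocyte and mesenchymal transcripts, and the most *Aire*. The part of any of these in the thymocyte transcripts was not tested.

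The genes whose pattern over the 8 libraries was most like that of the thymocyte genes were looked for by the Pearson correlation of log2 CPM with the mean log2 CPM of the 10 genes, among genes in none of the lists. Among the 10 most alike were *Plpp4* (r = 0.986), *Best3* (0.985), *Rnf112* (0.982), *Neurod1* (0.978), *Prss53* (0.976), *Tnf* (0.976), *Rhbdf1* (0.972), *Obp2a* (0.972), and *Adgrg6* (0.972), over 8 libraries that share depth and group. *Neurod1*, a factor of endocrine and neuronal cells, was at 1.99, 0.357, and 2.13 CPM in CCL21-RANK+ TECs. It was at 0.173, 0, and 0.0174 CPM in CCL21+RANK- TECs and at 0 in both CCL21-RANK- libraries. Its low CCL21-RANK+ replicate 2 follows from picking genes by this pattern and adds nothing to it. *Rhbdf1* was the most abundant of them, at 57.3, 44.6, and 55.0 CPM, 42.8, 32.0, and 26.9 CPM, and 24.2 and 25.7 CPM. The choice of these genes was not stable, since the Spearman correlation kept 1 of the 10 and a prior count of 0.5 kept 5.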

How the data were processed

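RNA-sequencing data were from 8 libraries of CD45-EpCAM+ TECs. The authors deposited a table of RSEM expected counts per gene, neither normalized nor filtered, in which 4.47% to 5.94% of the values of a library were not whole numbers. The submitters' processing notes name bcl2fastq 2.20, Trimmomatic, STAR 2.5.1, RSEM 1.3.1, and mm10, whereas the methods name CLC Genomics Workbench, and the stated library kits also differ (a TruSeq and a NEBNext directional kit). RSEM divides a read that matches several genes among them, so overlapping genes and near copies are uncertain. The 55450 identifiers matched GENCODE M21 (GRCm38). The common biological coefficient of variation was 0.326, and libraries of a group were further apart than counting noise alone gives (chi-square per gene 78.5 to 260).

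Counts were rounded and tested in edgeR 4.0.16 (R 4.3.3) with TMM normalization, the default filter (21451 genes), and its quasi-likelihood F test, with p-values adjusted by Benjamini and Hochberg's method, in a model of 3 group means over all 8 libraries. A gene was called at an adjusted p under 0.05. The standard error (SE) was derived from this test, as the absolute log2 fold change over the square root of the F statistic. The fit was tested on simulated data, and the outcome is not reported here. RPKM used library totals and summed exon length. The 10 genes and the 14 lists were chosen with earlier results of these data known. Named were all 10 genes, all receptor constant regions, *Ptprc*, *Epcam*, *Ccl21a*, *Tnfrsf11a*, and of each other list the 3 most abundant and up to 4 most abundant called genes. *Lcp2*, *Cd8b1*, *Aire*, *Ncr1*, *Itgb2*, *Pdgfra*, *B230118H07Rik*, and *Gm48719* were named after their values were seen. Some genes that the rule names are not reported here. Alternatives were DESeq2 1.42.0, other scalings and filters, only the libraries compared, a replicate block, the study's thresholds (fold over 1.5, RPKM over 1), and each library left out.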

Additional observations from a re-analysis of the deposited data

How the results depend on the processing

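The direction of the 10 genes and their calls are limited by the 2 CCL21-RANK- libraries and by low counts. Thymocyte genes called in CCL21-RANK+ against CCL21-RANK- TECs numbered 8, and 4 (*Cd4*, *Cd8a*, *Lck*, *Rag1*) under the study's thresholds. Those called in CCL21+RANK- against CCL21-RANK- TECs numbered 0, but 3 by the DESeq2 Wald test, 3 without a low-count filter, 2 with only the libraries compared, 3 with the replicate block, and 1 (*Ptcra*, lower) without both reporter-positive libraries numbered 1, an alternative chosen after seeing the data. That alternative called 7 genes in CCL21-RANK+ against CCL21-RANK- and 5 in CCL21-RANK+ against CCL21+RANK- TECs. Leaving out each library gave 2 to 8, 0 to 1, and 2 to 5 thymocyte genes in the 3 comparisons. Over all genes the main counts were 10501, 2453, and 11516. The study's thresholds gave 6332 for CCL21-RANK+ against CCL21-RANK- and 6617 for CCL21-RANK+ against CCL21+RANK-, DESeq2 gave 3685 for CCL21+RANK- against CCL21-RANK-, and leaving out each library gave 6814 to 10568 and 753 to 3519 for the comparisons with CCL21-RANK- TECs. The log2 fold change of *Rag2* in CCL21+RANK- over CCL21-RANK- TECs, 0.17, became -0.06 without CCL21+RANK- replicate 1, -0.25 without replicate 2, 0.67 without replicate 3, and -0.06 without both libraries numbered 1; the cause was not tested. With at least 10 counts in every library, *Ptcra*, *Rag2*, and *Dntt* were not tested, and *Dntt* dropped out of the fit of CCL21+RANK- and CCL21-RANK- libraries alone. In CCL21-RANK+ against CCL21+RANK- TECs, *Dntt* was gained without a low-count filter and *Cd3e* with at least 10 counts in every library. DESeq2 size factors, upper-quartile scaling, and leaving out *Gm26917* and *Gm42418* changed no call of the 10 genes.

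The replicate numbers were not taken to pair the libraries. Between CCL21+RANK- and CCL21-RANK+ TECs, departures from the group means correlated at 0.126, 0.0485, and 0.0707 for equal numbers, and each of these libraries correlated best with its own number, which is a hint from the data and not from the design. Against CCL21-RANK- TECs these correlations were all negative, down to -0.117. With the replicate block 6, 3, and 4 thymocyte genes were called in CCL21-RANK+ over CCL21-RANK-, CCL21+RANK- over CCL21-RANK-, and CCL21-RANK+ over CCL21+RANK- TECs, against 8, 0, and 3 without it (*Cd3d*, adjusted p = 0.0755, and *Cd3g*, adjusted p = 0.054, were lost in the first, and *Dntt* was gained in the last), and 9430, 2532, and 10795 of all genes.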

Other observations

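Erythroid transcripts, of red cells that the EpCAM gate would remove, followed the order of the thymocyte genes between the reporter-positive groups but not for CCL21-RANK- TECs. The sum of 8 erythroid genes was 5.33, 140, and 43.3 CPM in CCL21+RANK-, 141, 222, and 225 CPM in CCL21-RANK+, and 375 and 42.4 CPM in CCL21-RANK- TECs. Every CCL21-RANK+ sum lay above every CCL21+RANK- sum, at 141 against 140 CPM where closest. The 2 CCL21-RANK- libraries, at 375 and 42.4 CPM, were far apart and overlapped both other groups. The CCL21+RANK- library with the highest sum of the 10 thymocyte genes, replicate 1, had the lowest erythroid sum of all 8 libraries. *Hbb-bs*, an adult beta globin gene, was at 2.32, 49.1, and 15.3 CPM, 43.9, 70.7, and 78.9 CPM, and 145 and 16.3 CPM, and *Hba-a1* and *Hba-a2*, near copies, varied likewise. Of the 8 genes 2 were higher for CCL21-RANK+ than for CCL21-RANK- TECs (median log2 fold change 0.96), about the share of all genes (27.0%), 0 differed between CCL21+RANK- and CCL21-RANK- TECs (-1.38), and 4 were higher for CCL21-RANK+ than for CCL21+RANK- TECs (2.5, with 30.6% of all genes), none of them an adult globin gene. Among these 4, *Alas2*, which encodes an enzyme of heme synthesis, was at 5.31 to 9.82 CPM in CCL21-RANK+ TECs.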
